A study of Mus musculus with 4 samples.

Results

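The Zscan4 family and a few genes of the 2-cell-like state were followed in mESCs that express wild-type CTCF or a CTCF without O-GlcNAc at T668. The set holds 10 genes, Zscan4a to Zscan4f, Zfp352, Tcstv1, Tcstv3 and Gm4340, taken from the rows of the deposited count table by gene symbol. It was selected on this same comparison, because earlier values of these libraries showed several of these genes lower in the mutant, so the differences of these genes are given below as descriptions without a test. Of the 37620 rows of the table, 7 belong to the set: Zscan4b, Zscan4c, Zscan4d, Zscan4e, Zscan4f, Zfp352 and Gm4340. Zscan4a, Tcstv1 and Tcstv3 are not named in the annotation of the genome build and were not analysed here. All 7 genes with a row passed the filter on low counts, which left 16264 genes to be tested.

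RNA-seq was performed on 4 libraries, 2 of WT_CTCF and 2 of MUT_CTCF mESCs. Both lines were made in mouse ESCs whose own CTCF carries EGFP and an auxin-inducible degron, and in both the tagged protein was removed with auxin. WT_CTCF cells express wild-type CTCF from a vector, and MUT_CTCF cells express from the same kind of vector a CTCF with alanine in place of threonine at T668, the residue that carries the O-GlcNAc. Each line was grown from a picked clone whose vector-encoded CTCF was near the endogenous level, so a difference between the lines cannot be told apart from a difference between clones. The cells were cultured on gelatin in serum with LIF. The comparison asks how gene expression differed between a line whose CTCF could carry the sugar at T668 and a line whose CTCF could not.

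Zscan4 genes are expressed in the 2-cell embryo, when the zygotic genome of the mouse is switched on. They encode nuclear proteins with the SCAN domain and zinc fingers that give them their name, and are known for a part in telomere lengthening and genome stability of mESCs. In an mESC culture only a few cells at a time express them, together with other genes of the 2-cell embryo, and these cells are called 2-cell-like. The transcription factor DUX starts this program, DPPA2 and DPPA4 act ahead of Dux, and several chromatin repressors keep it silent in the other cells. A bulk library averages over all cells, so fewer 2-cell-like cells and less Zscan4 RNA per such cell cannot be told apart here.

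The 5 Zscan4 genes with a row are close copies in 1 cluster on chromosome 7 of mm9. Their order along the chromosome is Zscan4b (11486098 to 11490399, minus strand), Zscan4c (11591071 to 11595896, plus strand), Zscan4d (11746992 to 11751497, minus strand), Zscan4e (11891727 to 11896031, minus strand) and Zscan4f (11983264 to 11988090, plus strand). A further copy, Zscan4-ps2, follows at 12099659 to 12104460. Zfp352, which encodes a zinc finger protein of the early embryo, lies on chromosome 4 (89885511 to 89892393, plus strand). Gm4340, a predicted gene with a coding length of 795 bases, lies on chromosome 10 (103632460 to 103633257, plus strand). No exon of these genes overlapped an exon of another annotated gene.

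The coding sequences show how little separates the copies. Zscan4b and Zscan4e differed at 4 of 1515 aligned coding bases (99.7% identity), and Zscan4c and Zscan4f at 6 of 1518 (99.6%). Zscan4d stood furthest from the others, with 51 differences from Zscan4b (96.6%) and 35 from Zscan4c (97.7%). The coding window of 60 bases with the most positions that vary among the 5 genes is shown. It was not chosen to separate each pair of copies. Capitals mark the 7 positions that are not the same in all 5 genes, coordinates are those of mm9, and each sequence is in the sense of the gene.
Zscan4b (chr7:11486969-11487028, minus strand): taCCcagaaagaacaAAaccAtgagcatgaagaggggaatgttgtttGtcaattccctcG
Zscan4c (chr7:11594460-11594519, plus strand): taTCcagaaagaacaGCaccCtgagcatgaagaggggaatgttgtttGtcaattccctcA
Zscan4d (chr7:11748096-11748155, minus strand): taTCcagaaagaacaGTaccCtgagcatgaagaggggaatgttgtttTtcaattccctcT
Zscan4e (chr7:11892598-11892657, minus strand): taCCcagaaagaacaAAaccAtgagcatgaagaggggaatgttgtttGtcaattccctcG
Zscan4f (chr7:11986653-11986712, plus strand): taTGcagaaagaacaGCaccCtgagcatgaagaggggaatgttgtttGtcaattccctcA
In this window Zscan4b and Zscan4e were identical, so their 4 coding differences lie outside it, and Zscan4c and Zscan4f differed at 1 base. Zscan4d differed from Zscan4c at 3 bases and from Zscan4b at 6.

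Only reads that mapped to 1 place were counted, so the share of each gene that is unique in the genome bears on its count. Zfp352 was nearly free of this limit, with 90.9% of its exonic windows of 50 bases found once in mm9. Among the Zscan4 genes the share was 50.5% in Zscan4d, 15.5% in Zscan4c, 7.23% in Zscan4b, 7.17% in Zscan4e and 2.29% in Zscan4f. It was 1.87% in Gm4340. With windows of 100 bases the shares were higher in all 7 genes, at 72.5% in Zscan4d, 99.3% in Zfp352, 6.36% in Zscan4f and 9.16% in Gm4340. Reads spanning exon junctions were not considered. The counts of Zscan4d and Zfp352 thus draw on the largest unique share of their exons. For the other genes fewer reads could be counted, so their levels, and the copy a read came from, are less certain.

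**Figure D1:**
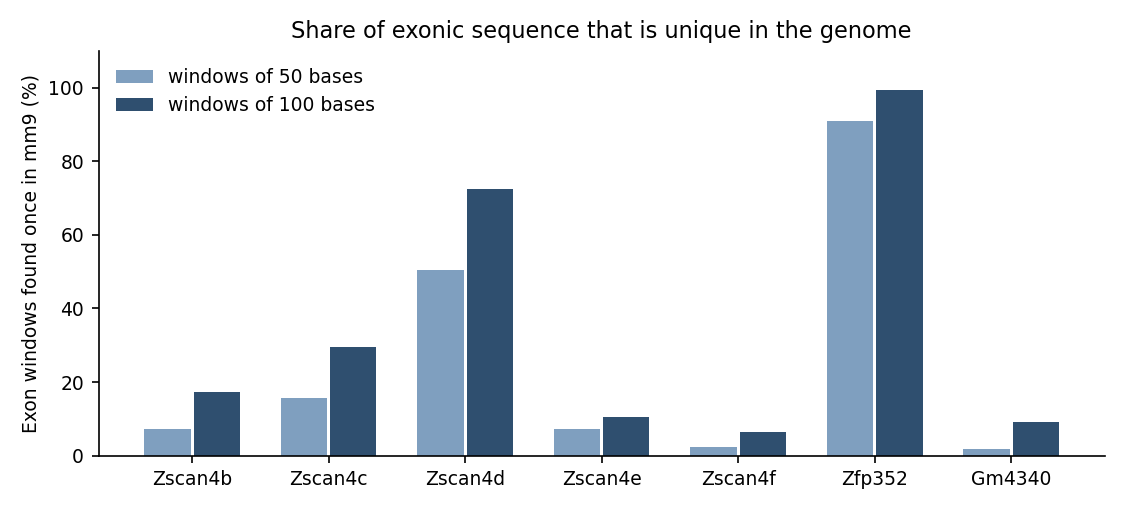
Percent of the exonic windows of each gene that occur once in the mm9 genome, on either strand, for windows of 50 bases (light bars) and 100 bases (dark bars). Zfp352 stands at 90.9% and 99.3% and Zscan4d at 50.5% and 72.5%, whereas the other Zscan4 genes and Gm4340 stay under 30% with either window.

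Next, the promoters of the copies were compared. RefSeq promoters on GRCm38.p6, 250 bases before to 50 after the start, were found for Zscan4b, Zscan4c, Zscan4d, Zscan4f, Zfp352 and Gm4340. The 4 Zscan4 promoters were 95.3% to 99.3% identical, the closest pair being Zscan4c and Zscan4f with 2 differing bases of 277 aligned. Searched on both strands, each held 1 TATAAA (the TATA box), 1 CCAAT (the box bound by NF-Y) and 1 TGATTNNATCA, a word that resembles the site preferred by DUX. No match to TGATTNNATCA was found in the windows of Zfp352 and Gm4340, while that of Gm4340 held 2 of CCAAT. Zscan4c and Zscan4d, the copies with the most unique exonic sequence, are shown over the 250 bases before the start, with the 3 words in capitals.
Zscan4c (chr7:11005495-11005744, plus strand): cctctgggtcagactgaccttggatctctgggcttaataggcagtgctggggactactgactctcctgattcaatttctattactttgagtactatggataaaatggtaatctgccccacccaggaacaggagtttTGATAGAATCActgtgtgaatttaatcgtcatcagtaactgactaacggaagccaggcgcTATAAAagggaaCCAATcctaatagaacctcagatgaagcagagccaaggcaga
Zscan4d (chr7:11166149-11166398, minus strand): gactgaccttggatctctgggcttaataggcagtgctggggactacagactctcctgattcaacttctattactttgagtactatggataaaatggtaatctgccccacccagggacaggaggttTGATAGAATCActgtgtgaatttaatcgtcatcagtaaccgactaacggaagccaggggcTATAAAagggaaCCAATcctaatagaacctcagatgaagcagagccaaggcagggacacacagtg
In the strand shown the word reads TGATAGAATCA, that is TGATTCTATCA on the opposite strand, and its first base lies 114 bases before the start in Zscan4c, 125 in Zscan4d and 91 in Zscan4b and Zscan4f. The word was present in 0.207% of 32851 promoters, against 13.6% with TATAAA and 37.4% with CCAAT. None of the 4 held ATGCAAAT (the octamer bound by OCT4, in 1.74% of promoters) or CCCTC (the letters CTCF is named after, in 66.0%). The binding motif of CTCF itself was not searched for. These matches are descriptions of the letters, and the 4 copies share them by sequence identity. Of 66 genes with TGATTNNATCA in the promoter, 12 were tested. Leaving out the 4 Zscan4 genes, 4 of the remaining 8 had a log2 fold change below 0, as did 49.2% of all tested genes. By edgeR's quasi-likelihood test at an adjusted p under 0.05, 0 of the 8 were called. Of all tested genes 1.61% were called lower and 1.56% higher. An unadjusted p under 0.05 was found in 0 of the 8, against 15.3% of all tested genes. The median was -0.0045 against 0.0033 over 10610 tested genes with a promoter. With 8 genes, counts of 0 are near these shares, and nothing is read from them.

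The libraries were close in depth, with total counts of 40524694 to 40977464. Counts given below are raw unless called normalised, that is scaled to the mean library by TMM factors of 0.994 to 1.01, and each mean ± SD is over 2 libraries. All 10 mESC markers checked were abundant, and their summed normalised counts lay between 312956 and 313956 in WT_CTCF and between 311808 and 312524 in MUT_CTCF. Of these markers Sox2 rose by 0.095 (log2; adjusted p = 0.0358 in edgeR's quasi-likelihood test) and Dppa5a fell by 0.099 (log2; adjusted p = 0.0157 in edgeR's quasi-likelihood test). Of 8 fibroblast markers, which feeder cells would carry, Lum was at 0 in every library, and Dcn and Postn between 0 and 6 counts. Col3a1 had 26 and 23 counts in WT_CTCF and 12 and 5 in MUT_CTCF, and Col1a2 37 and 35 against 14 and 49. The others were expressed: Thy1 had 596 and 654 counts in WT_CTCF and 700 and 744 in MUT_CTCF. Col1a1 had 218 and 193 against 238 and 220, and Pdgfra 153 and 107 against 109 and 227. The summed normalised counts of the 8 markers were 1015 and 1040 in WT_CTCF against 1072 and 1251 in MUT_CTCF. Among the 5 of them tested, 0 were called by edgeR's quasi-likelihood test, and 1 (Col3a1) had an unadjusted p under 0.05, as did 15.3% of all tested genes. Ctcf itself was at 0.044 (log2 ratio of the lines, with SE 0.0284 and adjusted p = 0.499 by edgeR's quasi-likelihood test), without telling endogenous from vector transcripts.

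Zscan4 RNA was lower in MUT_CTCF mESCs. Reads that map equally to several copies were not counted, and a sum over rows does not restore them. Summed over the 5 Zscan4 rows, raw counts were 1875 and 1813 for WT_CTCF and 1528 and 1393 for MUT_CTCF. Both MUT_CTCF libraries lay below both WT_CTCF libraries. The normalised sum was 1848 ± 42.3 (SD, n = 2) for WT_CTCF. It was 1457 ± 80.7 (SD, n = 2) for MUT_CTCF, or 78.8% of the WT_CTCF level, and the log2 ratio was -0.34 with an SE of 0.0685. The ratios of a single MUT_CTCF to a single WT_CTCF library ran from 0.745 to 0.834. With the counts of Zscan4-ps2 added, the sums were 2047 and 1963 against 1695 and 1508, and the log2 ratio -0.33 with an SE of 0.0668.

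Zscan4d, the copy with the most counts, held the largest part of the difference in counts. It also had the largest unique share among the Zscan4 genes (50.5% of windows of 50 bases), so more of its reads could be counted. Its part of the difference in RNA can therefore not be read from these counts. Its counts were 627 and 613 in WT_CTCF and 421 and 440 in MUT_CTCF. The groups did not overlap, and within each group the 2 libraries were close. Its normalised read count of 621.2 ± 9.59 (SD, n = 2) for WT_CTCF stood against 429.7 ± 17.5 (SD, n = 2) for MUT_CTCF, which is 30.8% lower and -0.53 on the log2 scale, with an SE of 0.114. Without Zscan4d, the sum of the other 4 copies had a log2 fold change of -0.26.

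Zscan4c, the copy used as a reporter of the 2-cell-like state in many mESC lines, had 379 and 409 counts in WT_CTCF and 341 and 303 in MUT_CTCF. The gap between the lines was as wide as the gap between the MUT_CTCF libraries. On the log2 scale the difference was -0.30, with an SE of 0.136.

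Zscan4e was the copy with the smallest difference. Its counts of 522 and 460 in WT_CTCF and 457 and 429 in MUT_CTCF nearly touched, and the log2 fold change of -0.15 was near its SE of 0.121. RefSeq on GRCm38.p6 lists this gene as a pseudogene, while the mm9 annotation used here gives it a coding sequence of 1515 bases. Its sequence is nearly that of Zscan4b.

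Zscan4b had the lowest counts of the family, 106 and 112 in WT_CTCF and 75 and 68 in MUT_CTCF. The lines were apart, and the log2 ratio of -0.61, the furthest from 0 in the family, had an SE of 0.277.

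Zscan4f was the one copy whose groups overlapped. It had 241 and 219 counts in WT_CTCF and 234 and 153 in MUT_CTCF, so MUT_CTCF replicate 1 lay between the WT_CTCF libraries and replicate 2 well below them. The log2 ratio was -0.26 with an SE of 0.183, and 0.0081 without MUT_CTCF replicate 2. This gene also had the fewest unique windows of the Zscan4 genes. The chi-square of its 2 MUT_CTCF counts was 15.9, against a mean of 4.35 per gene between the MUT_CTCF libraries over tested genes.

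Outside the Zscan4 cluster, Zfp352 had 105 and 112 counts in WT_CTCF and 66 and 82 in MUT_CTCF. The groups did not overlap. The ratios of single MUT_CTCF to single WT_CTCF libraries ran from 0.583 to 0.783, and the log2 ratio of the lines was -0.56 with an SE of 0.277. Since 90.9% of its windows of 50 bases are unique, few of its reads could be shared with another locus.

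Gm4340 had 581 and 556 counts in WT_CTCF and 441 and 358 in MUT_CTCF, again without overlap. The MUT_CTCF libraries differed from each other more than the WT_CTCF libraries did, as the chi-square of 7.54 in MUT_CTCF and 0.531 in WT_CTCF shows. On the log2 scale the lines differed by -0.52, with an SE of 0.122.

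**Figure D2:**
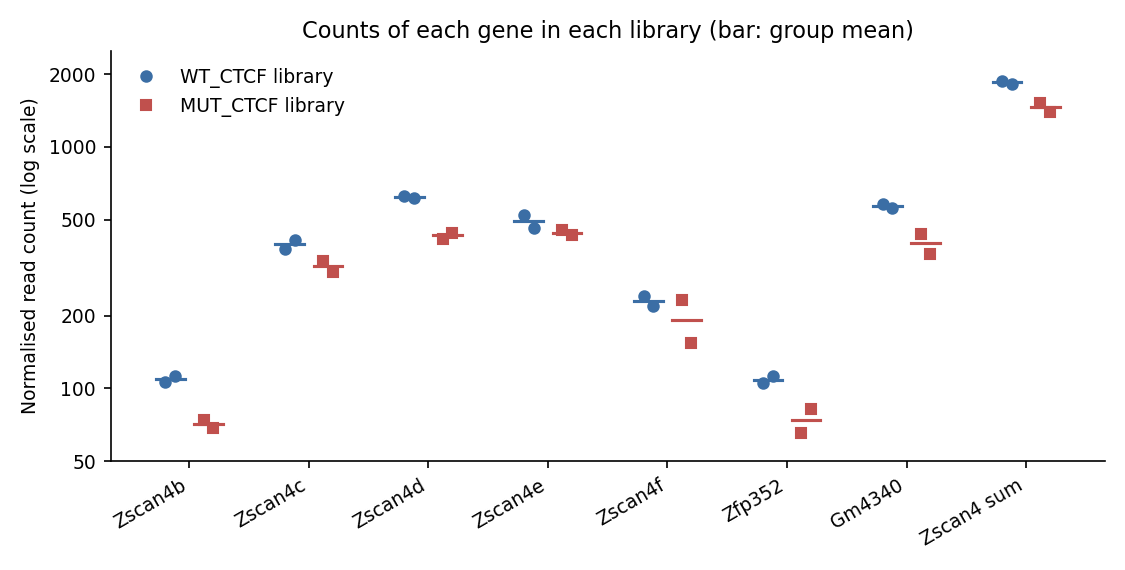
Normalised read count (log scale) of the 7 genes and of the Zscan4 sum in each WT_CTCF library (circles) and MUT_CTCF library (squares), with bars at the group means. In all but Zscan4f both MUT_CTCF libraries lie below both WT_CTCF libraries; the Zscan4 sum was 1848 in WT_CTCF and 1457 in MUT_CTCF on average.

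In all, the log2 fold changes of the 7 genes ran from -0.61 to -0.15 with a median of -0.52, beside a median of 0.0034 over all tested genes. Both MUT_CTCF libraries lay below both WT_CTCF libraries in 6 of the 7, a pattern that 22.3% of all tested genes showed, and all 7 log2 fold changes were below 0, as were 49.2% of those of all tested genes. Because this contrast chose the genes, nothing is read from these counts. None of the 7 differed by as much as 2-fold.

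The order of the levels depends on how length is counted. Per kilobase of exon, the WT_CTCF level was 713.8 normalised counts in Gm4340, 311.9 in Zscan4d, 281.9 in Zscan4e, 171.6 in Zscan4c, 94.8 in Zscan4f, 62.6 in Zscan4b and 46.7 in Zfp352. On this scale Gm4340 lay at the 77.1 percentile of the tested genes, Zscan4d at the 62.1 and Zfp352 at the 31.3. No neighbours in this order overlapped between their WT_CTCF libraries, and Zscan4d and Zscan4e were the closest. Per 1000 unique windows of 50 bases, however, Zscan4f (4609) and Zscan4e (4432) stood above Zscan4c (1207), Zscan4b (975.1) and Zscan4d (684.9). The rank of a Zscan4 copy can therefore not be read from these counts.

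The share of each copy in the Zscan4 counts was compared next. Zscan4d gave 33.4% (95% Wilson interval 31.3 to 35.6%) and 33.8% (31.7 to 36.0%) of them in WT_CTCF. In MUT_CTCF it gave 27.6% (25.4 to 29.8%) and 31.6% (29.2 to 34.1%). The interval of MUT_CTCF replicate 1 lay below those of both WT_CTCF libraries, while that of replicate 2 overlapped them. Zscan4e exceeded Zscan4d in MUT_CTCF replicate 1, at 29.9% (27.7 to 32.3%), and had 30.8% (28.4 to 33.3%) in replicate 2, against 27.8% and 25.4% in WT_CTCF. Zscan4c held 20.2% to 22.6% in the 4 libraries, Zscan4b 4.88% to 6.18% and Zscan4f 11.0% to 15.3%. These intervals cover counting error only, and reads are not independent molecules.

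**Figure D3:**
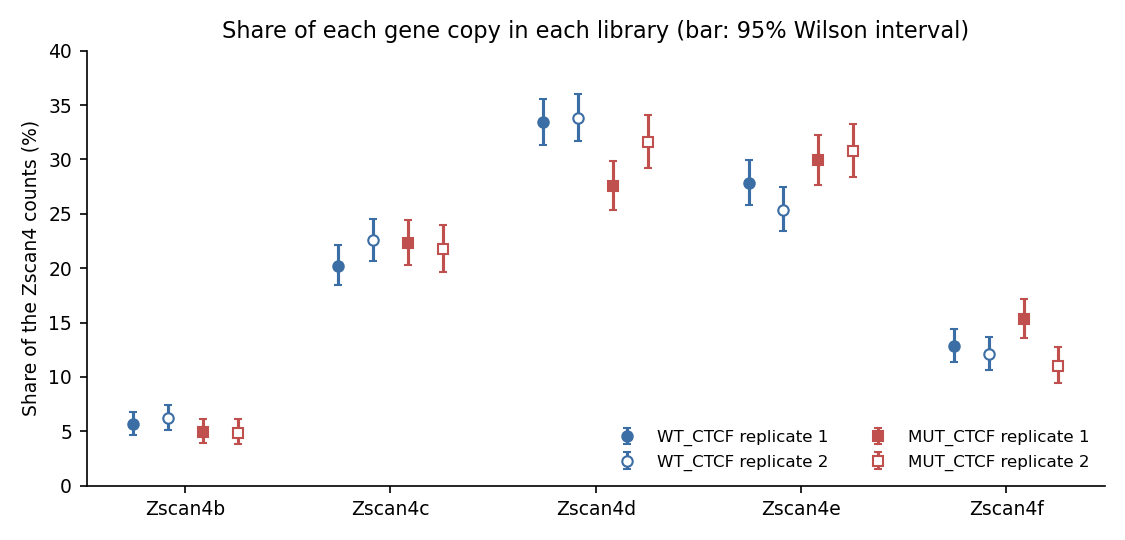
Percent of the counts on the 5 Zscan4 genes that fell on each gene, in each WT_CTCF library (circles) and MUT_CTCF library (squares), replicate 1 filled and replicate 2 open, with 95% Wilson intervals. Zscan4d held 33.4% and 33.8% in WT_CTCF against 27.6% and 31.6% in MUT_CTCF, and Zscan4e 27.8% and 25.4% against 29.9% and 30.8%.

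To place these genes in their program, other genes of the 2-cell embryo were examined from a list written with earlier results of these data known, which therefore is not independent evidence of its direction. Of 50 genes in the list, 35 rows were found and 26 were tested. At an adjusted p under 0.05 from edgeR's quasi-likelihood test, 2 of 26 were lower and 0 higher in MUT_CTCF mESCs, when 1.61% of all tested genes were lower and 1.56% higher. The genes called were Gm5662 and Sp110. Log2 fold changes were below 0 in 23 of 26, against 49.2% of all tested genes, with a median of -0.34 beside 0.0034. Both MUT_CTCF libraries were below both WT_CTCF libraries in 16 of 26, against 22.3% of all tested genes. The 26 are not independent, since they hold Zscan4-ps2 and families of copies. Dux is also on the list of activators below. Every call of a gene named below was lost when either MUT_CTCF library was left out. All but that of Trp53 were also lost without either WT_CTCF library. Each such fit leaves 1 library in a group, so these calls rest on having both libraries of a line.

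Gm5662 belongs to a cluster of genes like Eif1a, a translation initiation factor, expressed at the 2-cell stage. It had 586 and 571 counts in WT_CTCF and 488 and 359 in MUT_CTCF, and fell by 0.46 (log2; SE 0.123; adjusted p = 0.0244 in edgeR's quasi-likelihood test). The 2 MUT_CTCF libraries were well apart from each other, yet both lay below WT_CTCF. The log2 fold change ran from -0.68 to -0.26 when 1 library was left out. Summed over the 7 tested rows of these genes, WT_CTCF had 1560 ± 67.4 normalised counts (SD, n = 2) against 1195 ± 164.4 for MUT_CTCF (SD, n = 2), and 6 of the 7 had a log2 fold change below 0. Copies within this cluster can share reads as well, and BB287469 was listed under 2 identifiers.

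Sp110, which encodes a nuclear body protein, had 742.5 ± 0.398 normalised counts (SD, n = 2) in WT_CTCF against 578.4 ± 9.03 for MUT_CTCF (SD, n = 2). The libraries of each line were nearly equal and the lines apart, and the call was lost with scaling by library size only. It fell by 0.36 (log2; SE 0.102; adjusted p = 0.0334 in edgeR's quasi-likelihood test).

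The other genes of the list did not pass. The Usp17 genes, which encode deubiquitinating enzymes and are listed mostly as Dub genes, summed to 3219 ± 45.0 normalised counts (SD, n = 2) for WT_CTCF against 2700 ± 49.0 for MUT_CTCF (SD, n = 2), with log2 fold changes below 0 in 5 of 5 and a median of -0.27. The Tdpoz genes summed to 164.8 ± 10.5 and 131.3 ± 14.7 (SD, n = 2). Apart from these families of copies, which were grouped after their values had been seen, 10 of 12 tested genes (Zscan4-ps2 among them) had a log2 fold change below 0, with a median of -0.36. Arg2, encoding the mitochondrial arginase, came nearest to the threshold among them, with 216 and 237 counts in WT_CTCF, 137 and 169 in MUT_CTCF (log2 ratio -0.57, adjusted p = 0.0830 by edgeR's quasi-likelihood test). Zfp750 and Cml2, at 0.12 and 0.099, were above 0. By the criterion of the study, which asks for a fold change above 2 and an unadjusted p under 0.05, only Ubtfl1 of the 26 was lower (52 and 30 counts against 13 and 23, log2 fold change -1.19), and 0.357% of all tested genes were. Arg2, Zfp750, Cml2 and Ubtfl1 were named after their values were seen.

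**Figure D4:**
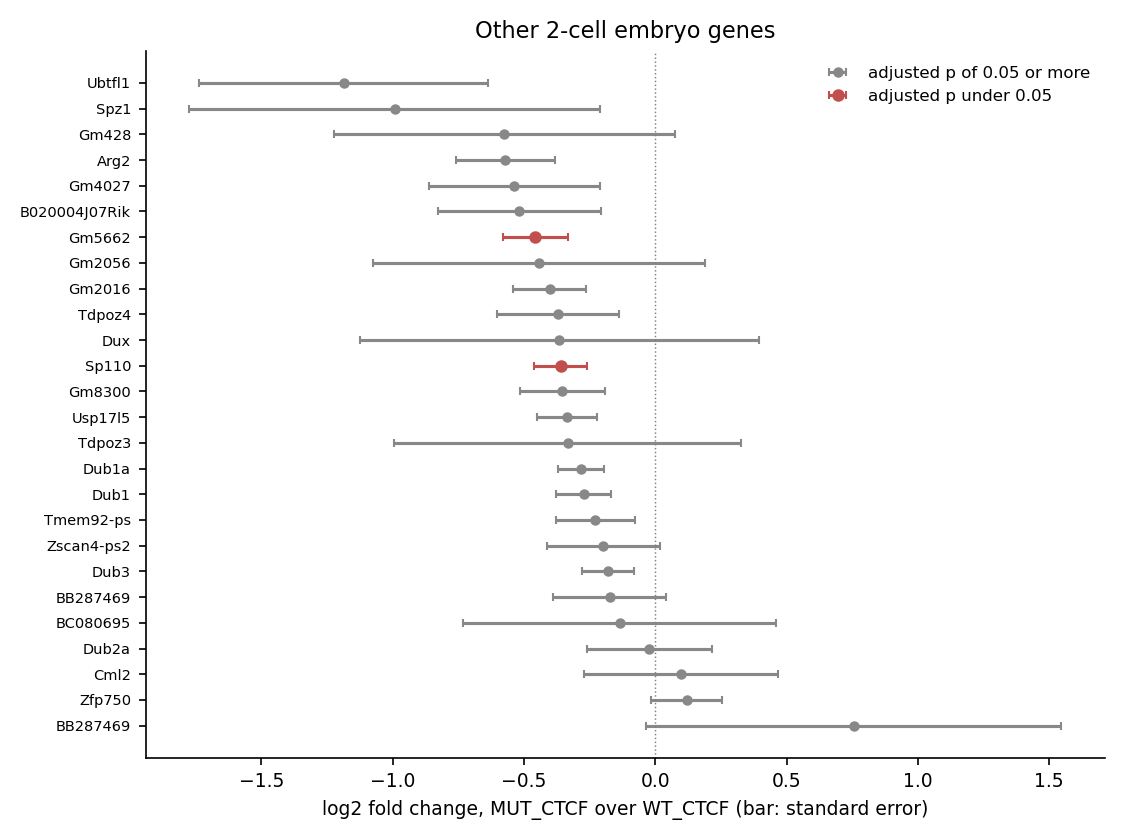
Log2 fold change of MUT_CTCF over WT_CTCF for the 26 tested genes of the 2-cell embryo outside the set described, with standard errors as bars, red where the adjusted p was under 0.05. Of the 26, 23 lie below 0, with a median of -0.34, and 2 (Gm5662 and Sp110) pass the threshold; BB287469 appears under 2 identifiers.

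Among known activators of the 2-cell-like state, 3 of 16 tested genes were lower and 0 higher at an adjusted p under 0.05, against 1.61% and 1.56% of all tested genes. These were Dppa2, Dppa4 and Trp53. The log2 fold changes were small, with a median of -0.046 over the 16, and 13 were below 0, against 49.2% of all tested genes. The shares over all tested genes were not matched for count level. This list, like those of repressors and SCAN zinc finger genes below, was also written with earlier results of these data known. None of these lists is independent evidence of a direction. Among the abundant mESC markers 2 of 10 were called, 1 lower and 1 higher. Dppa2, which acts with DPPA4 on the Dux promoter, had 2698 and 2736 counts in WT_CTCF and 2388 and 2282 in MUT_CTCF, and fell by 0.22 (log2; SE 0.0565; adjusted p = 0.0135 in edgeR's quasi-likelihood test). Dppa4 had 2195 and 2186 against 1916 and 1894 counts, and fell by 0.21 (log2; SE 0.0616; adjusted p = 0.0462 in edgeR's quasi-likelihood test). The lines did not overlap in either gene, and the 2 libraries of each line were close. The call of Dppa4 was lost with DESeq2 and with scaling by library size only.

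Trp53, which encodes the p53 tumour suppressor, had 33067 and 32748 counts in WT_CTCF and 29700 and 30639 in MUT_CTCF, and fell by 0.13 (log2; SE 0.0255; adjusted p = 0.000674 in edgeR's quasi-likelihood test). Dux itself was near the limit of detection, with 13 and 14 counts in WT_CTCF and 11 and 10 in MUT_CTCF. Its log2 fold change of -0.36 had a SE of 0.758, so a change of the size seen in Zscan4d was not detectable at this depth. Obox6, a homeobox gene, and Pias1 were the highest of the list, at 0.30 and 0.18, and did not pass. The NF-Y subunit genes Nfya, Nfyb and Nfyc had log2 fold changes from -0.079 to -0.028 and did not pass either. Dux, Obox6, Pias1 and the NF-Y genes were named after their values were seen.

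Of 30 repressors of the 2-cell-like state, all were tested, and 2 were lower and 2 higher at an adjusted p under 0.05. Of all tested genes 1.61% were lower and 1.56% higher, shares again not matched for count level. On the log2 scale, 13 of the 30 differences were below 0, against 49.2% of all tested genes, and their median was 0.0077. Trim28, the co-repressor of KRAB zinc finger proteins, had 137302 and 136266 counts in WT_CTCF and 128992 and 132005 in MUT_CTCF, and fell by 0.073 (log2; SE 0.0186; adjusted p = 0.0142 in edgeR's quasi-likelihood test). Ncl, encoding nucleolin, had 29243 and 28495 against 27890 and 26319 counts, and fell by 0.097 (log2; SE 0.0263; adjusted p = 0.0260 in edgeR's quasi-likelihood test). Relative to the WT_CTCF mean, Trim28 was 4.96% lower and Ncl 6.49% lower, and both calls were lost with scaling by library size only.

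The 2 higher genes both encode histone-modifying enzymes that repress 2-cell genes. Kdm1a, the histone demethylase LSD1, had 18112 and 18433 counts in WT_CTCF and 19323 and 20066 in MUT_CTCF, and rose by 0.10 (log2; SE 0.0289; adjusted p = 0.0326 in edgeR's quasi-likelihood test). Ehmt2, the histone methyltransferase G9a, had 10277 and 10434 against 10935 and 11698 counts, and rose by 0.12 (log2; SE 0.0346; adjusted p = 0.0326 in edgeR's quasi-likelihood test). In both, the groups lay apart, and the MUT_CTCF libraries differed more than the WT_CTCF libraries. The call of Ehmt2 was lost with DESeq2.

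SCAN zinc finger genes outside the Zscan4 cluster were taken as relatives by protein domain. All 19 were tested, and 0 were called by edgeR's quasi-likelihood test in either direction. Of all tested genes 1.61% were called lower and 1.56% higher. With 19 genes, 0 calls are near these shares, and nothing is read from them. By the same test 4 had an unadjusted p under 0.05, against 15.3% of all tested genes. DESeq2 also called 0 but gave 12 of the 19 no adjusted p. Of the 19, 9 lay below 0, against 49.2% of all tested genes, and the median was 0.014 (log2). The 3 highest per kilobase were Zscan10, Zkscan17 and Zfp498, with log2 fold changes of -0.084, 0.079 and 0.14. Zscan10, a partner of the pluripotency factors and the most expressed of them, had 8706 and 9085 counts in WT_CTCF and 8090 and 8752 in MUT_CTCF, which overlap.

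**Figure D5:**
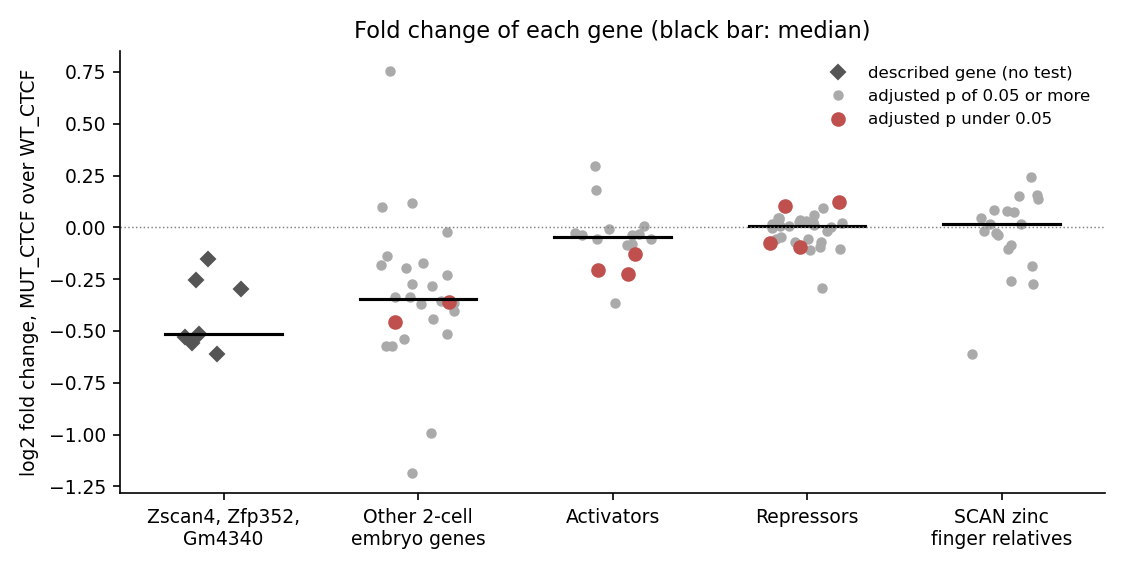
Log2 fold change of MUT_CTCF over WT_CTCF for the 7 genes described (diamonds, no test) and for the tested genes of each list (circles, red where the adjusted p was under 0.05), spread sideways for clarity, with black bars at the medians. The medians are -0.52, -0.34, -0.046, 0.0077 and 0.014 from left to right.

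Genes next to the loci were examined to see whether the difference extended along the chromosome. Within 1000000 bases of the 7 genes the annotation holds 75 other rows, of which 61 were at 0 in every library and 7 were tested. Of the 7, 0 were called by edgeR's quasi-likelihood test at an adjusted p under 0.05. Of all tested genes 1.61% were called lower and 1.56% higher. With 7 genes, 0 calls are near these shares, so they do not tell whether the difference extended along the chromosome. By the same test 1 had an unadjusted p under 0.05, against 15.3% of all tested genes. DESeq2 called 0 of the 7 and left 6 without an adjusted p. On chromosome 7, Zik1, a zinc finger gene, had 476 and 434 counts in WT_CTCF and 522 and 401 in MUT_CTCF (log2 fold change 0.014), Gm6900 was at 0.20 and Zscan4-ps2 at -0.20, and the groups overlapped in all 3. Zscan4-ps2 is itself a Zscan4 copy, with 4 differences from Zscan4f in 1518 aligned coding bases. Only 4.8% of its exonic windows of 50 bases are unique. On chromosome 4, the cell cycle inhibitor genes Cdkn2a and Cdkn2b were at 0.054 and -0.079. Dmrta1 had 6 and 1 counts in WT_CTCF and 19 and 13 in MUT_CTCF (log2 ratio 2.15, adjusted p = 0.224 by edgeR's quasi-likelihood test), and met the criterion of the study as 0.947% of all tested genes did on the higher side. On chromosome 10, the transporter gene Slc6a15 was at -0.13, with 343 and 322 against 321 and 290 counts.

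Last, the tested genes whose profile over the 4 libraries was nearest to that of the Zscan4 sum were listed, by the Euclidean distance between log2 normalised counts centred on their mean, among 14646 genes with a mean of at least 20 normalised counts. They were Cnn2 (distance 0.0197), 2310046K01Rik (0.0300), Usp17l5 (0.0331), Dio3 (0.0336) and Adcy2 (0.0392). Only Usp17l5, a Usp17 gene with 590 and 570 counts in WT_CTCF and 490 and 433 in MUT_CTCF, is also on the list of 2-cell embryo genes. Cnn2 encodes a calponin, Dio3 a deiodinase of thyroid hormone and Adcy2 an adenylyl cyclase. Of the genes described, Zscan4c was nearest to the sum, at 0.124 with 100 candidates nearer, and Zfp352 furthest, at 0.398 with 7149 nearer. With 4 points, many genes with a lower MUT_CTCF level lie close to any such profile.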

How the data were processed

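RNA-seq was performed on 2 WT_CTCF and 2 MUT_CTCF libraries. The authors trimmed reads with Trim Galore 0.4.4, mapped them with STAR (mm9), and deposited raw counts per gene, made from uniquely mapped reads by HTSeq-count 0.9.1; the strand setting is not given in the sources used here. A second deposited table with the authors' own edgeR comparison (fold changes and p-values) was not used. The genes described and all gene lists were chosen with earlier results of these data known.

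Genes were named by GENCODE M1 on NCBIM37 (mm9), which named 37205 of 37620 identifiers. Genes were kept by filterByExpr with a minimum count of 10, scaled by TMM, and tested for a difference between the lines with glmQLFit and glmQLFTest (edgeR 4.0.16, R 4.3.3), with Benjamini-Hochberg adjustment over 16264 genes; the study's methods call the 2 libraries of a line biological replicates, and the p-values measure the spread between these libraries of 1 clone per line. The Zscan4 sum was fitted as an added row. In each list and locus, genes with an adjusted p under 0.05 were named, or else the 3 with the highest count per kilobase; the 5 nearest profiles were also named. Alternatives were DESeq2 1.42.0 (size factors and Wald test), library size only, other filters, a replicate block, the study's criterion, a sum with the pseudogene or without Zscan4d, a window of 500000 bases, and each library left out. The fit was tested on simulated counts with 200 changed genes. It recovered 55.4% at a fold of 1.3 among 16196 genes tested and 90.5% at a fold of 2 among 16167. Of its calls, 0.917% and 3.23% were false. Every gene was simulated with the common dispersion of 0.0022, so differences in dispersion between genes were not covered.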

Additional observations from a re-analysis of the deposited data

How the results depend on the processing

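The Zscan4 sum stayed below 0 under every alternative run, but its log2 fold change was -0.26 without Zscan4d. Zscan4f ran from -0.58 to 0.0081 over the fits that left out 1 library, the latter without MUT_CTCF replicate 2, and the median of the 7 genes from -0.51 to -0.38. With the replicate block the sum was -0.34, the median -0.52, and 372 genes were lower and 326 higher; 3 genes of the 2-cell embryo list were then lower in place of 2. Same-numbered libraries did not deviate together over the tested genes (correlation -0.0198). Whether they were prepared as pairs is not stated in the sources used here. Scaling by library size only left 153 genes lower, 1 of the 2-cell embryo list and 0 repressors. DESeq2's Wald test left 129 genes higher, 1 repressor higher and 0 genes of the 2-cell embryo list, of which its own filter on low means left 25 of 26 without an adjusted p. Without a filter, 3 genes were lower and 26 higher, and 0 of the 2-cell embryo genes, activators and repressors in either direction. By the study's criterion 58 genes were lower and 154 higher, with 1 gene of the 2-cell embryo list lower, 0 activators, 0 repressors in either direction and 1 neighbour higher. Leaving out 1 library gave 0 to 102 genes lower and 0 to 140 higher: 0 without either MUT_CTCF library, 63 lower and 130 higher without WT_CTCF replicate 1, and 102 lower and 140 higher without replicate 2, with 0 of the 2-cell embryo list, 0 to 1 activators and 0 repressors. The cause was not tested. The median log2 fold change of the 2-cell embryo list lay between -0.38 and -0.26 over these fits, with 19 to 23 genes below 0. Dux and other genes with under 20 counts were limited by depth.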
